A study of Mus musculus with 72 samples.

Results

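Gene expression in the interfollicular epidermis of back skin, which lies outside the hair follicles, was compared between the fourth and the first time point in WT mice kept in constant darkness. The comparison rested on 8 count libraries of the 72 in the series, 4 animals at each of time points 1 and 4, and on all 17944 genes that passed a filter on low counts. Animals were female C57BL/6 mice of 8 weeks, taken after 156 to 176 h without light following a schedule of 12 h light and 12 h dark. The WT animals were not free of transgenes: they carried K14-Cre, a recombinase driven by a keratin promoter of basal keratinocytes. KO animals (Bmal1-stopFL) carry a stop cassette in the clock gene Arntl, also called Bmal1. RE animals (Bmal1-stopFL/K14-Cre) carry the cassette together with K14-Cre, which restores the gene in keratinocytes and leaves it blocked in the rest of the body. KO and RE libraries of the same time points, 4 animals for each, were used to ask whether a change between the times differed between genotypes. No hour is given for a single time point in the labels. If the 6 points were evenly spaced they would lie 4 h apart, and time points 1 and 4 would lie 12 h apart.

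Each library was 1 mouse. Totals ran from 35.8 to 40.4 M counts at time point 1 and from 37.8 to 44.2 M at time point 4. The mitochondrial share was 2.45 ± 0.0898% and 2.74 ± 0.305% (mean ± SD, n = 4 each), a difference with an exact permutation p of 0.171, two-sided. With 4 animals against 4 the smallest p such a test can give is 0.0286. Keratinocyte markers stood at high levels in all 8 libraries. The summed level of Krt5, Krt14, Krt1, Krt10 and Trp63 was 30243 to 32373 CPM (counts scaled by library size) at time point 1. At time point 4 it was 29587 to 31884 CPM. These genes do not tell interfollicular epidermis from hair follicle. Hair follicle markers summed to 845 to 1058 CPM at time point 1 and to 960 to 1103 CPM at time point 4. The first principal component of the 8 libraries held 30.2% of the variance and placed all animals of time point 1 on one side and all of time point 4 on the other. Along the second, with 19.9%, replicate 4 of time point 4 stood apart at 38.9, against 21 for the next highest library.

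The circadian clock of mammalian cells is a feedback loop of transcription. The activators BMAL1 and CLOCK, or its relative NPAS2, bind DNA letters called E-boxes and switch on the Period and Cryptochrome genes, whose proteins return to silence the activators. REV-ERB and ROR nuclear receptors form a second loop that represses or activates Arntl through ROR elements, and the PAR bZIP factors DBP, TEF and HLF pass the rhythm on through D-boxes. In mouse epidermis this clock is known to time cell division and differentiation of keratinocytes over the day.

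Between the times, 700 of 17944 genes (3.9%) were called at an adjusted p under 0.05 by edgeR's quasi-likelihood test. At time point 4, 409 were higher (2.28% of those tested) and 291 were lower (1.62%). The typical change was small, with a median size of 0.59 on the log2 scale, and 194 of the called genes changed by 2-fold or more, 78 upwards and 116 downwards. A change of 4-fold or more was reached by 20 genes in each direction. The median of all genes tested was 0.01. In 2607 genes (14.5%) the 4 animals of one time did not overlap those of the other, a looser criterion than the adjusted p. An unadjusted p under 0.05, also a looser criterion, was reached by 2842 of the 17944 genes. Of the 15 most raised genes, 8 belonged to the clock and 4 were targets of glucocorticoids. Of the 15 most lowered, 2 were clock activators and 5 were listed mitosis genes. Leaving out a single animal lowered the count by over 1.5 times for all 4 of time point 1 (459, 343, 436 and 383 genes without replicates 1 to 4) and for replicate 3 of time point 4 (397 genes).

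**Figure D1:**
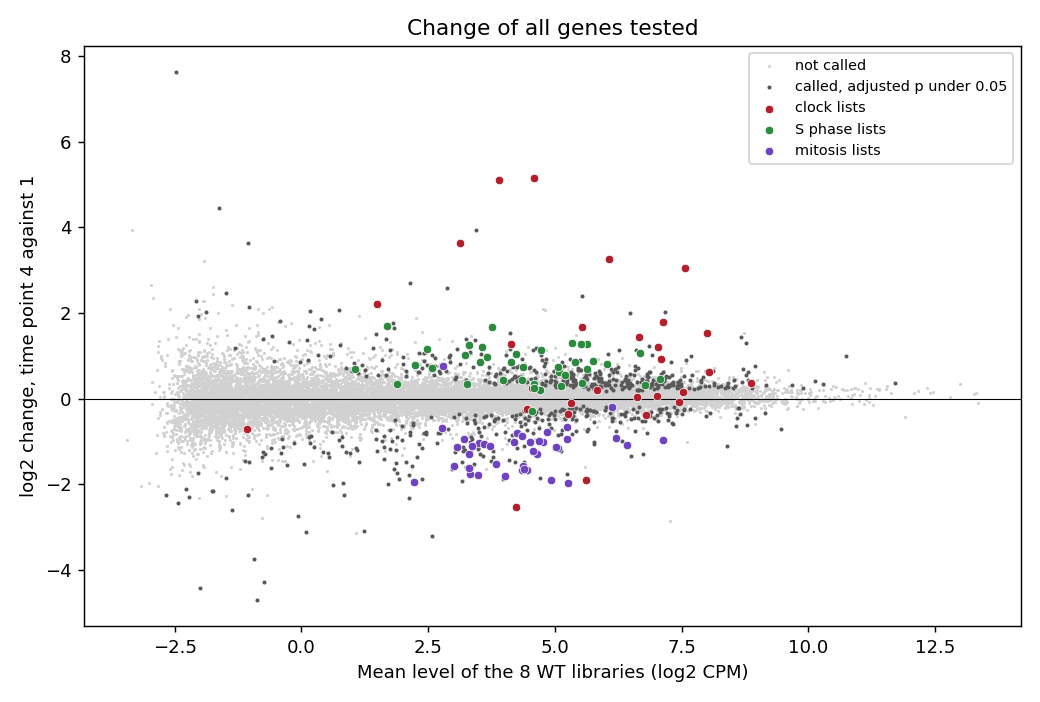
The log2 change from time point 1 to 4 (vertical axis) is plotted against the mean level of the 8 WT libraries in log2 CPM (horizontal axis) for the 17944 genes tested, with called genes in dark grey and the clock, S phase and mitosis lists in colour. The clock genes Per2 and Dbp reach 5.15 and 5.10, all but 1 of the S phase genes lie above 0, and all but 1 of the mitosis genes lie below 0.

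Activators of the clock were low at time point 4. Of the 4 activator genes 3 fell and none rose. Arntl itself (chromosome 7, 113207465-113314126, plus strand, GRCm38) stood at 91.6, 96.9, 98.4 and 99.0 CPM in the animals of time point 1 and at 32.8, 19.3, 30.3 and 20.5 CPM in those of time point 4. The groups did not come near each other, and the log2 change was -1.91 ± 0.12 (SE, adjusted p = 8.07e-10). Npas2 (chromosome 1, 39193731-39363236, plus strand), the alternative partner of BMAL1, stood at 48.0, 47.3, 44.7 and 40.8 CPM and then at 8.17, 5.68, 8.98 and 8.38 CPM. Its fall was the steepest of any clock gene, with a log2 change of -2.53 ± 0.25 (adjusted p = 1.82e-06). Clock fell by much less, from 123 to 132 CPM down to 88.0 to 105 CPM (log2 change -0.38 ± 0.09, adjusted p = 0.014), and its call was lost without replicate 2 of time point 1 or replicate 4 of time point 4. Arntl2, a paralog of Arntl, had overlapping groups and a log2 change of -0.11 (adjusted p = 0.777).

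Of the Period and Cryptochrome repressors 3 of 5 rose. Per2 (chromosome 1, 91415982-91459324, minus strand) was close to silent at time point 1, with 3.53, 2.55, 6.65 and 3.82 CPM, and stood at 156, 123, 154 and 159 CPM at time point 4. The gap between the highest early animal and the lowest late one was far wider than the spread within either group. Its log2 change of 5.15 ± 0.45 (adjusted p = 5.17e-07) was the largest of the listed genes. Per3 rose from 25.4, 21.3, 21.1 and 19.8 CPM to 199, 244, 195 and 198 CPM (log2 change 3.26 ± 0.16, adjusted p = 1.16e-11). Cry2 rose from between 55.4 and 67.8 CPM to between 126 and 204 CPM (1.45 ± 0.15, adjusted p = 1.52e-06). Per1, which answers to light and hormones as well as to the clock, had animals at 62.2, 111, 250 and 239 CPM at time point 1 and at 322, 575, 528 and 478 CPM at time point 4. Its groups did not overlap, and the log2 change of 1.52 ± 0.45 was not called (adjusted p = 0.0629). Cry1 had overlapping groups, between 25.8 and 34.3 CPM early and between 28.3 and 56.7 CPM late (0.57 ± 0.19, adjusted p = 0.114).

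Among the receptors of the second loop, Nr1d2 rose. This gene, which encodes the repressor REV-ERBβ, moved from 80.3, 77.2, 70.8 and 74.4 CPM to 245, 306, 282 and 219 CPM (log2 change 1.80 ± 0.17, adjusted p = 9.59e-07). Nr1d1, which encodes REV-ERBα, had separate groups of 76.8 to 102 and 142 to 356 CPM and lay just outside the threshold (1.20 ± 0.34, adjusted p = 0.0504). Replicate 2 of time point 4 carried the highest Nr1d1 level, 356 CPM against 187 CPM for the next animal. Rora, an activator, had overlapping groups (0.36 ± 0.25, adjusted p = 0.536).

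The PAR bZIP genes, direct clock outputs, rose in 3 of 3 cases. Dbp (chromosome 7, 45705088-45710203, plus strand) stood at 3.34, 1.88, 2.77 and 2.42 CPM and then at 66.3, 136, 75.3 and 78.8 CPM. Its mean was 34.2 times as high at time point 4 (log2 change 5.10 ± 0.28, adjusted p = 9.71e-11). Tef rose from 79.4, 61.9, 61.9 and 62.0 CPM to 521, 615, 546 and 500 CPM, with the smallest adjusted p of all genes tested (3.04 ± 0.14, adjusted p = 2.29e-12). Hlf rose from between 93.2 and 114 CPM to between 157 and 212 CPM (0.92 ± 0.20, adjusted p = 0.0105). Nfil3, a repressor at the same D-boxes, showed no call and broad overlap, from 23.1 to 66.6 CPM early and from 23.6 to 60.2 CPM late (adjusted p = 0.755).

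Of the further repressors of BMAL1 and CLOCK, 2 of 3 rose. Ciart stood at 1.86, 1.93, 3.15 and 3.18 CPM and then at 21.8, 47.4, 27.7 and 29.2 CPM (log2 change 3.63 ± 0.32, adjusted p = 3.81e-07). Bhlhe41 rose from between 0.961 and 1.44 CPM to between 3.75 and 7.82 CPM (2.21 ± 0.30, adjusted p = 8.13e-05). Its paralog Bhlhe40 was not called (0.61 ± 0.32, adjusted p = 0.357). Among 9 genes listed as enzymes or partners of clock proteins, Timeless rose. It moved from between 9.37 and 13.5 CPM to between 22.5 and 36.7 CPM (1.28 ± 0.28, adjusted p = 0.00972). The kinase genes Csnk1d, Csnk1e and Gsk3b and the ubiquitin ligase genes Fbxl21, Btrc and Fbxw11 were not called, nor was the protease gene Usp2. Fbxl21, a gene of low level, had groups that did not overlap all the same, with a log2 change of -0.72 ± 0.32 (adjusted p = 0.252). Of these 9 genes 4 had an unadjusted p under 0.05, beside 2842 of all 17944 genes. Over all 29 clock genes, 14 were called, 11 higher and 3 lower, beside the 3.9% of all genes. With any 1 of the 8 animals left out, the number was 13 to 16.

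**Figure D2:**
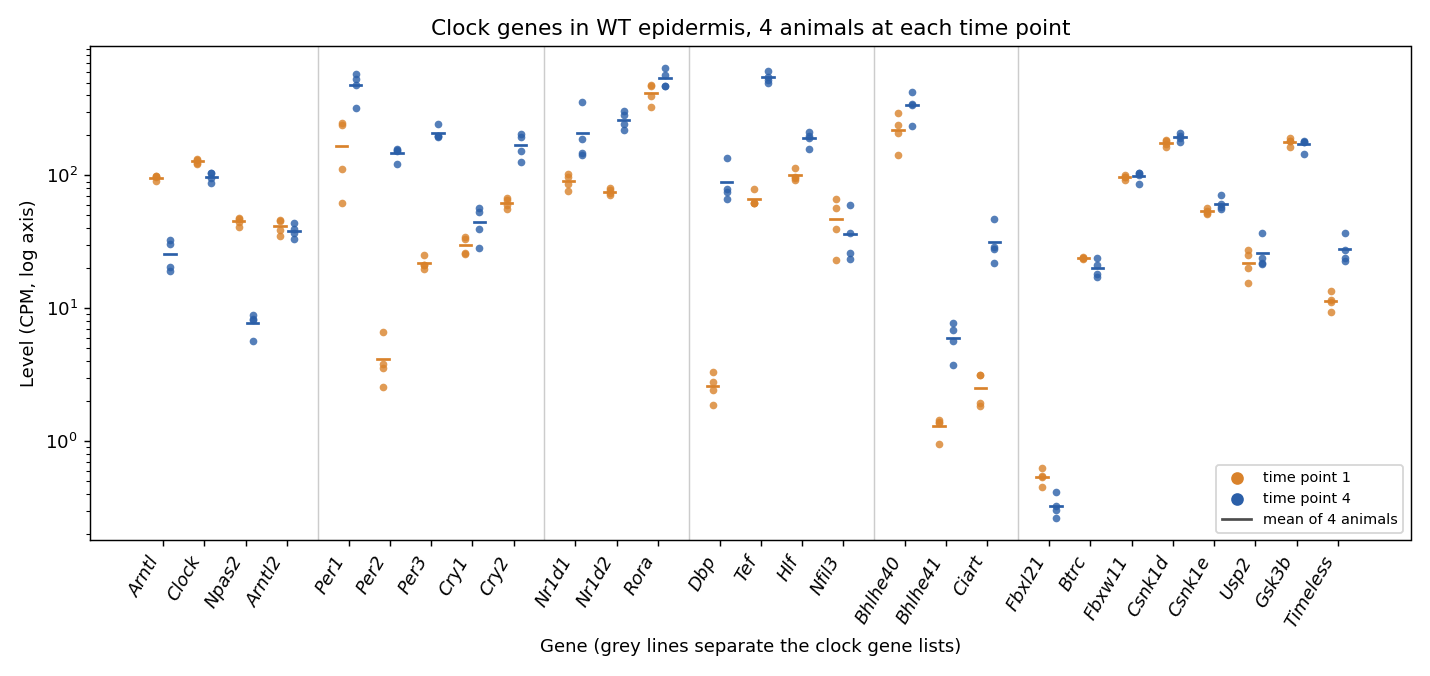
Each point is the level of a clock gene in 1 WT animal, in CPM on a log axis, at time point 1 (orange) and time point 4 (blue), with bars at the mean of 4 animals and grey lines between the gene lists. Arntl and Npas2 lie lower at time point 4, and Per2, Per3, Dbp, Tef and Ciart lie higher with wide gaps between the groups, whereas of the enzymes and partners at the right Timeless lies higher, Fbxl21 lies lower without a call, and the points of both times overlap for the others.

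Promoters of 4 clock genes that rose are printed. They were picked for holding the letters through which clock proteins are known to act, which most promoters of the clock lists do not hold. They come from RefSeq windows on GRCm38.p6 that run from 250 bases before to 50 bases after a gene's start, in the direction of the gene. Capitals mark the E-box, CACGTG, in the first 3 and the D-box, TTATGTAA or TTACGTAA, in the last.
Ciart, chr3:95882179-95882478, minus strand: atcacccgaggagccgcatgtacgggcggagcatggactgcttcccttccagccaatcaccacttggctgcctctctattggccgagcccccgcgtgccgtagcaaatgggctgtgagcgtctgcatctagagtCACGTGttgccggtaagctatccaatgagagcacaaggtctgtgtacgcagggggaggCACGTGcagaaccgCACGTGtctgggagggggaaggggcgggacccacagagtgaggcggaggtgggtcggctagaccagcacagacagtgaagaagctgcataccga
Tef, chr15:81811164-81811463, plus strand: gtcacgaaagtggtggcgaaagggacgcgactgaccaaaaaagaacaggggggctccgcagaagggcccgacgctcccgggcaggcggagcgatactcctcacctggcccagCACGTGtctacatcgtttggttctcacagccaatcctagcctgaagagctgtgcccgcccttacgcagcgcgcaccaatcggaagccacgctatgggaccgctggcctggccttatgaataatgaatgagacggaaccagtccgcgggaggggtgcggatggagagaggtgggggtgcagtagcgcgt
Bhlhe41, chr6:145865371-145865670, minus strand: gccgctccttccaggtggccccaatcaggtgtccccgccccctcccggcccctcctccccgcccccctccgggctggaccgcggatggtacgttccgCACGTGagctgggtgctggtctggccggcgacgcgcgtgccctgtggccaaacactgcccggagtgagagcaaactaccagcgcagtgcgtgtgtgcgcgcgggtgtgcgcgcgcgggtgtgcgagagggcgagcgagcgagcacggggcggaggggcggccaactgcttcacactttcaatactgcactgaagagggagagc
Per3, chr4:151044616-151044915, minus strand: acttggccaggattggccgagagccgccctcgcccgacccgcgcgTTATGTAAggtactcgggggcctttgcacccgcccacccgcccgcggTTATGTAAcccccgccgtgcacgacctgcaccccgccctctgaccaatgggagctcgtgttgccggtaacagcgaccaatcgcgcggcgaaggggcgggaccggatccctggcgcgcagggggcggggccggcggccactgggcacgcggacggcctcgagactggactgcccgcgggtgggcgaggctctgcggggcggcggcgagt
Ciart held 3 E-boxes in its window, Tef held 1 in each of 2 alternative starts, of which the second is shown, and Per3 held 2 D-boxes. An E-box on either strand was found in 9.35% of 14726 promoters of tested genes and in 16.8% of the 393 promoters of genes that rose, against 6.69% of the 269 of genes that fell. A D-box was found in 0.72% of the promoters of tested genes, in 11 of those of genes that rose (2.8%) and in none of those of genes that fell. Windows were found for 23 of the 29 clock genes. Of their 31 promoters 6 held an E-box (19.4%) and 2 a D-box (6.45%), and the 3 promoters of REV-ERB and ROR receptors held neither. No sequence outside the windows was searched. A match in these letters is a description of the sequence and not a binding site.

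Cell cycle genes moved in opposite directions according to the phase they serve. Before a cell divides it licenses its origins of replication and copies its DNA in S phase, and it then builds a spindle and separates the chromosomes in mitosis. Of 18 genes of origin licensing and S phase entry, 14 rose and none fell, with a median log2 change of 1.02. Among 20 genes of DNA synthesis 7 rose and none fell, with a median of 0.59. Of 15 genes of mitotic entry 6 fell and none rose (median -1.03), and of 24 genes of the spindle, kinetochore and cytokinesis 11 fell and none rose (median -1.12). Beside these, 2.28% of all genes rose and 1.62% fell, with a median of 0.01. All 24 spindle genes had groups that did not overlap, beside 14.5% of all genes. All 24 also had an unadjusted p under 0.05, beside 2842 of all 17944 genes. In bulk tissue, fewer cells in a phase and less RNA of these genes per cell cannot be told apart.

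The replicative helicase and its loaders led the S phase genes. Mcm6, a subunit of the helicase, stood at 71.4, 71.5, 73.0 and 68.2 CPM and then at 165, 120, 135 and 178 CPM (log2 change 1.07 ± 0.18, adjusted p = 0.0014). Its early animals were tightly grouped and its late ones were spread, with replicate 4 highest and replicate 2 lowest. E2f1, a factor that switches on S phase genes, moved from between 6.58 and 9.20 CPM to 23.5, 18.5, 21.6 and 33.8 CPM (1.67 ± 0.30, adjusted p = 0.00209). Orc1, which marks origins, moved from between 1.70 and 1.86 CPM to between 3.61 and 8.22 CPM (1.69 ± 0.34, adjusted p = 0.0043). The licensing list alone had 9 calls without replicate 1 or 2 of time point 1 or replicate 1 or 4 of time point 4, and 8 without replicate 4 of time point 1. Gins2 of the helicase complex rose by 1.25 ± 0.21 and Cdt1, which loads the helicase, by 1.04 ± 0.20. The other helicase subunits Mcm2, Mcm3, Mcm4, Mcm5 and Mcm7 rose by 0.69 to 1.29. Of the DNA synthesis genes, Chaf1b, which places histones on new DNA, rose by 1.21 ± 0.22, and the polymerase α subunits Pola2 and Prim1 by 0.85 ± 0.18 and 0.56 ± 0.12. The synthesis list had 4 calls without any 1 animal of time point 1 or replicate 1 or 4 of time point 4. Not called were the nucleotide makers Rrm1, Rrm2, Tk1 and Tyms, whose log2 changes were 0.19 to 0.33. The count of 21 of the 38 S phase genes was sensitive to single animals: it was 13 without replicate 1, 13 without replicate 2 and 12 without replicate 4 of time point 1, and 13 without replicate 1 or replicate 4 of time point 4.

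Among mitosis genes 17 of 39 fell, beside 1.62% of all genes. The 4 animals of the times did not overlap in 35 of the 39, beside 14.5% of all genes. Ccnb2, a cyclin that drives mitotic entry, stood at 17, 22.2, 19.9 and 16.9 CPM and then at 5.91, 3.65, 3.99 and 8.87 CPM (log2 change -1.76 ± 0.32, adjusted p = 0.00229). Cdc20, which activates the anaphase-promoting complex, stood at 31.9, 43.3, 39.6 and 38.3 CPM and then at 13.3, 7.26, 9.92 and 18.6 CPM (-1.64 ± 0.30, adjusted p = 0.00286). In both genes the late animals lay well below the early ones, and replicate 4 was again the highest of the late group. Cenpa, the histone of the centromere, fell from between 34.8 and 39.8 CPM to between 7.89 and 17.1 CPM (-1.67 ± 0.27, adjusted p = 0.000882). Cenpf of the kinetochore fell furthest of the 39 mitosis genes (-1.96 ± 0.36, adjusted p = 0.00284). Cdc25c, the phosphatase that releases the mitotic kinase, fell by 1.95 ± 0.35, the mitotic kinase Aurka by 1.29 ± 0.23, Ccnb1 by 1.66 ± 0.31 and the spindle gene Aspm by 1.91 ± 0.37 on the log2 scale. Ccnf, a ubiquitin ligase subunit, fell by 1.12 ± 0.19. Mybl2, which is switched on earlier in the cycle, was the only one of the 39 with a positive change, 0.77 with an adjusted p of 0.0581 by edgeR. The proliferation marker Mki67, chosen after its values were seen, had a log2 change of -1.02 ± 0.36 that was not called (adjusted p = 0.127). DESeq2 called 31 of the 39 mitosis genes where edgeR called 17.

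The summed level of the 39 mitosis genes was 1313, 1777, 1680 and 1562 CPM in replicates 1 to 4 of time point 1 and 856, 450, 635 and 1019 CPM at time point 4. That of the 38 S phase genes was 893, 960, 1024 and 931 CPM and then 1642, 1241, 1444 and 1933 CPM. The groups overlapped in neither sum. At time point 4 the animals had the same order in both, with replicate 4 highest, then replicates 1 and 3, and replicate 2 lowest.

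**Figure D3:**
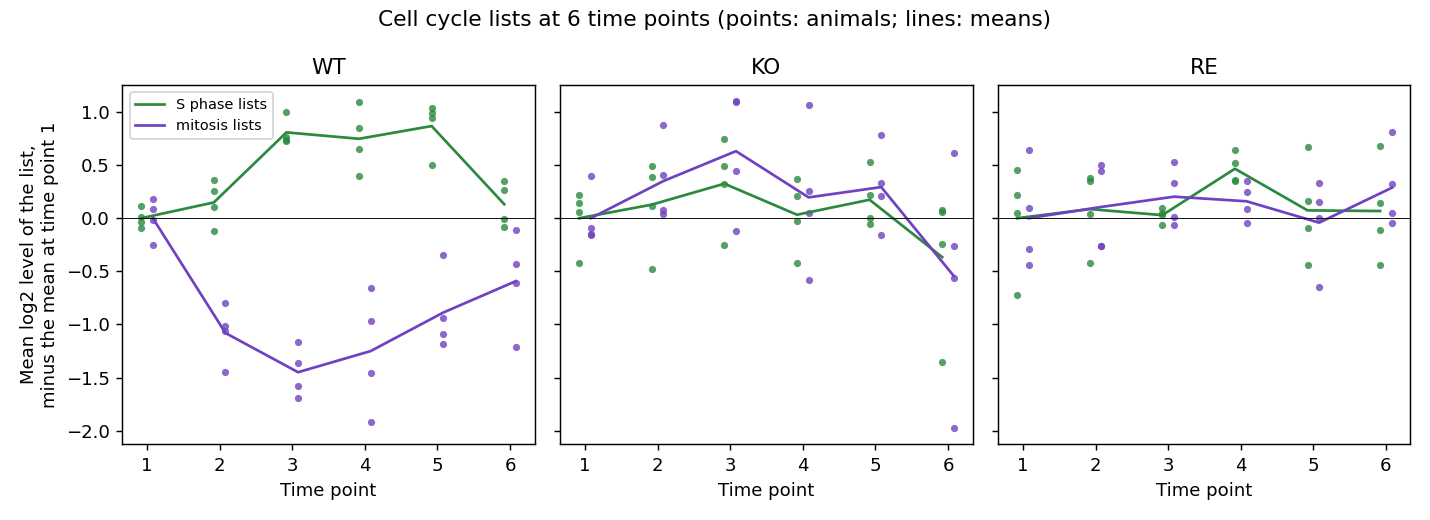
The mean log2 level of the S phase genes (green) and mitosis genes (purple), less its mean at time point 1, is shown at the 6 time points in WT, KO and RE, with a point for each animal and lines through the means of 4. In WT the S phase genes stand between 0.75 and 0.87 at time points 3 to 5 and the mitosis genes lie lowest at time point 3, at -1.45. In KO the mitosis genes run from 0.63 ± 0.58 at time point 3 to -0.54 ± 1.08 at time point 6 (mean ± SD). In RE the means of both lists lie between -0.04 and 0.47. Each genotype is set to its own time point 1, where the mitosis genes summed to 1583 CPM in WT, 719 in KO and 943 in RE on average.

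Promoters of 1 gene that rose and 2 that fell are shown. They were picked for holding a short sequence element known from genes of these phases. Most promoters of the mitosis lists hold theirs, and most of the S phase lists do not. A check against the first bases of annotated transcripts matched the windows of Ccnb2 and Cdc20 but not that of Mcm6. Capitals mark the E2F site, TTTGGCGC or TTTCCCGC, in Mcm6 and the cell cycle homology region (CHR), TTTGAA or TTTAAA, in Ccnb2 and Cdc20. E2F factors act at the former in S phase genes, and the complexes that keep mitotic genes silent until late in the cycle act at the latter.
Mcm6, chr1:128359656-128359955, minus strand: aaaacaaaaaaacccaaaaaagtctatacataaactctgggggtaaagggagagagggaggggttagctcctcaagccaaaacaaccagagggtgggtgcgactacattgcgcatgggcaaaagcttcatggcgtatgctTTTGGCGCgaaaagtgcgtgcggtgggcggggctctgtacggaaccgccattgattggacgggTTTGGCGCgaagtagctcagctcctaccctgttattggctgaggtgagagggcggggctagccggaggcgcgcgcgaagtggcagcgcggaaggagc
Ccnb2, chr9:70421505-70421804, minus strand: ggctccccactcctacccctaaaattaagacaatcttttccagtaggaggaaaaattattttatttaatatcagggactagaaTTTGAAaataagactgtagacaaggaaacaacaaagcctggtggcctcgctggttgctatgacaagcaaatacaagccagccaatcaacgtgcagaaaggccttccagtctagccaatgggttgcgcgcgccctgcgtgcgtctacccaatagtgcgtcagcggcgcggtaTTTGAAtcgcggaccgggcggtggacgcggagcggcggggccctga
Cdc20, chr4:118437294-118437593, minus strand: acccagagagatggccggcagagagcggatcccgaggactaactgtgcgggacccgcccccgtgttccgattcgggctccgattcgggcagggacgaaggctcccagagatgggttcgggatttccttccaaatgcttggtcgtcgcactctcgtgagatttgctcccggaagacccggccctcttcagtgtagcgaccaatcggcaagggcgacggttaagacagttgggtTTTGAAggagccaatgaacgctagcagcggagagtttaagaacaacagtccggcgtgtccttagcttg
Mcm6 held 2 E2F sites. An E2F site was found in 7 of the 16 promoters of the licensing and S phase entry list (43.8%) and in 3 of the 22 of the DNA synthesis list, against 2.63% of the promoters of tested genes. It was found in none of the 34 promoters of the mitosis lists. A CHR was found in 22 of 23 promoters of the spindle list (95.7%) and in 7 of 11 of mitotic entry, against 2951 of the 14726 promoters of tested genes and 27.6% of all 32851 promoters in the table. Of 33 CHR matches in the spindle list, 25 lay between 100 bases before and 50 bases after the start. CCAAT, the box read by NF-Y, stood in 18 of the 23 and 10 of the 11, against 37.1% of tested promoters. Over all genes that fell, 32.7% of promoters held a CHR, and over all genes that rose 17.3% did. Matches were sought on both strands, and those of different motifs were counted separately even where they overlapped.

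At the entry to the cycle, the cyclins Ccnd2 and Ccnd1 rose. Ccnd2 (chromosome 6, 127125162-127152193, minus strand) moved from 255, 233, 246 and 263 CPM to 658, 782, 629 and 644 CPM, a log2 change of 1.44 ± 0.10 (adjusted p = 2.01e-09). Ccnd1 moved from between 72.3 and 84.9 CPM to between 160 and 191 CPM (1.22 ± 0.13, adjusted p = 2.9e-06). Their partner kinase Cdk6 went the other way, from between 160 and 188 CPM to between 120 and 132 CPM (-0.49 ± 0.07, adjusted p = 8.83e-05). None of the other 10 listed genes, Myc and the EGF family ligands among them, was called. Of 13 tested genes that restrain the cycle none was called by edgeR, 3 had an unadjusted p under 0.05 and DESeq2 called 1. Over all 17944 genes, 2842 had an unadjusted p under 0.05. Wee1, a kinase that holds cells before mitosis and a known clock target, moved from 16.9, 22.6, 42.2 and 41.1 CPM to 65.5, 75.8, 69.2 and 85.6 CPM. Its groups did not overlap and its log2 change of 1.27 ± 0.39 was not called (adjusted p = 0.0712). Cdkn1a, which encodes the CDK inhibitor p21, had overlapping groups and a change of -0.03 (both genes chosen after their values were seen). In nucleotide excision repair, which removes damage from ultraviolet light, edgeR and DESeq2 called none of 13 genes and 1 had an unadjusted p under 0.05. In homologous recombination and Fanconi repair edgeR called none of 15, 3 had an unadjusted p under 0.05 and DESeq2 called 2.

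Targets of glucocorticoids, the adrenal hormones whose blood level follows the day, rose in 4 of 17 cases with none lower, beside the 2.28% of all genes that rose. Glul, which makes glutamine, stood at 76.9, 65.9, 77.0 and 71.3 CPM and then at 206, 308, 357 and 309 CPM (log2 change 2.02 ± 0.32, adjusted p = 0.000683). Fkbp5, a chaperone of the glucocorticoid receptor, stood at 25.2, 21.1, 19.6 and 19.1 CPM and then at 87.1, 62.2, 106 and 192 CPM (2.40 ± 0.50, adjusted p = 0.00727). Late animals exceeded all early ones in both, and the spread of Fkbp5 was widest at time point 4. Zbtb16, a zinc finger factor, rose by 1.99 ± 0.32 (adjusted p = 0.000921) and Tsc22d3, which encodes the anti-inflammatory protein GILZ, by 1.74 ± 0.29 (adjusted p = 0.00118). Per1, also on this list, is given above. The receptor gene Nr3c1 itself had a change of 0.10 and was not called, nor were Sgk1, Dusp1, Klf9, Ddit4 or the metallothioneins Mt1 and Mt2. The median of the list was 0.54. Of 15 immediate early genes, which answer to stimulation within minutes, edgeR and DESeq2 called none and none had an unadjusted p under 0.05.

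In folate metabolism, which feeds nucleotide synthesis, 4 of 18 genes rose, beside 2.28% of all genes. Mthfd1l (chromosome 10, 3973118-4167081, plus strand), the mitochondrial enzyme that releases formate, moved from 2.12, 2.87, 3.88 and 3.25 CPM to 16, 12.9, 17.7 and 25.9 CPM. Its log2 change of 2.58 ± 0.30 (adjusted p = 1.49e-05) exceeded that of every other metabolic gene on the lists. Shmt1 rose by 0.64 ± 0.10 and Mtrr by 0.47 ± 0.08. Mthfd1, Shmt2, Mthfd2 and Phgdh were not called, and the median of the list was 0.12. Chaperones of the endoplasmic reticulum fell in 4 of 17 cases, beside 1.62% of all genes, and rose in none (median -0.32). Hsp90b1 moved from 405, 483, 532 and 491 CPM to 375, 246, 269 and 334 CPM (-0.64 ± 0.12, adjusted p = 0.00296). The late animals were below the early ones, with replicate 1 the highest of them. Calr fell by 0.61 ± 0.13, the disulfide isomerase gene Pdia4 by 0.51 ± 0.11 and Pdia3 by 0.36 ± 0.10 on the log2 scale, the last keeping its call only without replicate 1 of either time when an animal was left out. Atf4, Ddit3 and Xbp1, factors of the unfolded protein response, were not called.

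Of 22 antioxidant genes 3 were called (13.6%), beside 3.9% of all genes. Sod2, the mitochondrial superoxide dismutase, rose by 0.68 ± 0.10 and Prdx6 by 0.45 ± 0.09, while Nqo1 fell by 0.80 ± 0.16. In fatty acid oxidation Ucp2, a mitochondrial carrier, rose from between 315 and 349 CPM to between 458 and 629 CPM (0.70 ± 0.12, adjusted p = 0.00174) and the dehydrogenase gene Acadl fell by 0.51 ± 0.11. The regulators Ppara and Ppargc1a had calls that single animals could remove, at 0.52 ± 0.13 (lost without replicates 2 or 4 of time point 1 or replicates 1 or 3 of time point 4) and -0.84 ± 0.23 (lost without any 1 of the 8 animals). Of the 17 genes of the fatty acid oxidation list 4 were called (23.5%), beside 3.9% of all genes. These 4 calls became 2 without replicates 2 or 4 of time point 1 or replicates 1 or 3 of time point 4. Lists of glycolysis and hypoxia (21 genes), the respiratory chain (20), ribosomal proteins (24), fatty acid and cholesterol synthesis (21), NAD metabolism (14) and cytosolic heat shock (17) held no gene called by edgeR. Their counts at an unadjusted p under 0.05 were 3, 0, 7, 2, 3 and 0, beside 2842 of all 17944 genes, and DESeq2 called 0, 0, 4, 1, 2 and 0. Of the 24 ribosomal protein genes 22 had a positive change (median 0.16). Their groups did not overlap in 15, beside 14.5% of all genes.

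Structural genes of the epidermis were called about as often as genes at large, with 1 of 15 in the basal, none of 14 in the spinous and 1 of 20 in the granular layer list beside 3.9% of all genes. In the basal layer Dst, which encodes the hemidesmosome linker BPAG1, was the only one of 15 genes called, moving from 157, 153, 139 and 139 CPM to 264, 328, 347 and 233 CPM (log2 change 1.00 ± 0.18, adjusted p = 0.00225). Krt5 and Krt14, keratins of that layer, had changes of 0.11 and 0.16, and Krt10 of the spinous layer -0.09. None of the 14 spinous genes was called by edgeR or DESeq2, with 2 at an unadjusted p under 0.05, beside 2842 of all 17944 genes. In the granular layer Ppl, a scaffold of the cornified envelope, rose by 0.42 ± 0.09 (adjusted p = 0.00812). Aloxe3, a lipoxygenase of the barrier, rose by 0.93 ± 0.23 and lost its call without replicate 2, 3 or 4 of time point 1 or replicate 2 or 3 of time point 4. Il33, an alarmin stored in keratinocyte nuclei, fell from 173, 172, 153 and 178 CPM to 71.8, 58.2, 74.9 and 69.3 CPM (-1.30 ± 0.19, adjusted p = 0.00038), and no late animal came near an early one. Cx3cl1, the chemokine fractalkine, rose from between 32.0 and 34.5 CPM to between 53.6 and 69.3 CPM (0.90 ± 0.10, adjusted p = 6.56e-06). Klf13 and Klf5 rose by 0.89 ± 0.23 and 0.32 ± 0.09, with fragile calls. With 1 animal left out, Klf13 was called only without replicate 3 of time point 1 or replicate 1 of time point 4, and Klf5 only without replicate 4 of time point 4. Of 14 interferon response genes edgeR and DESeq2 called none and 1 had an unadjusted p under 0.05.

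**Figure D4:**
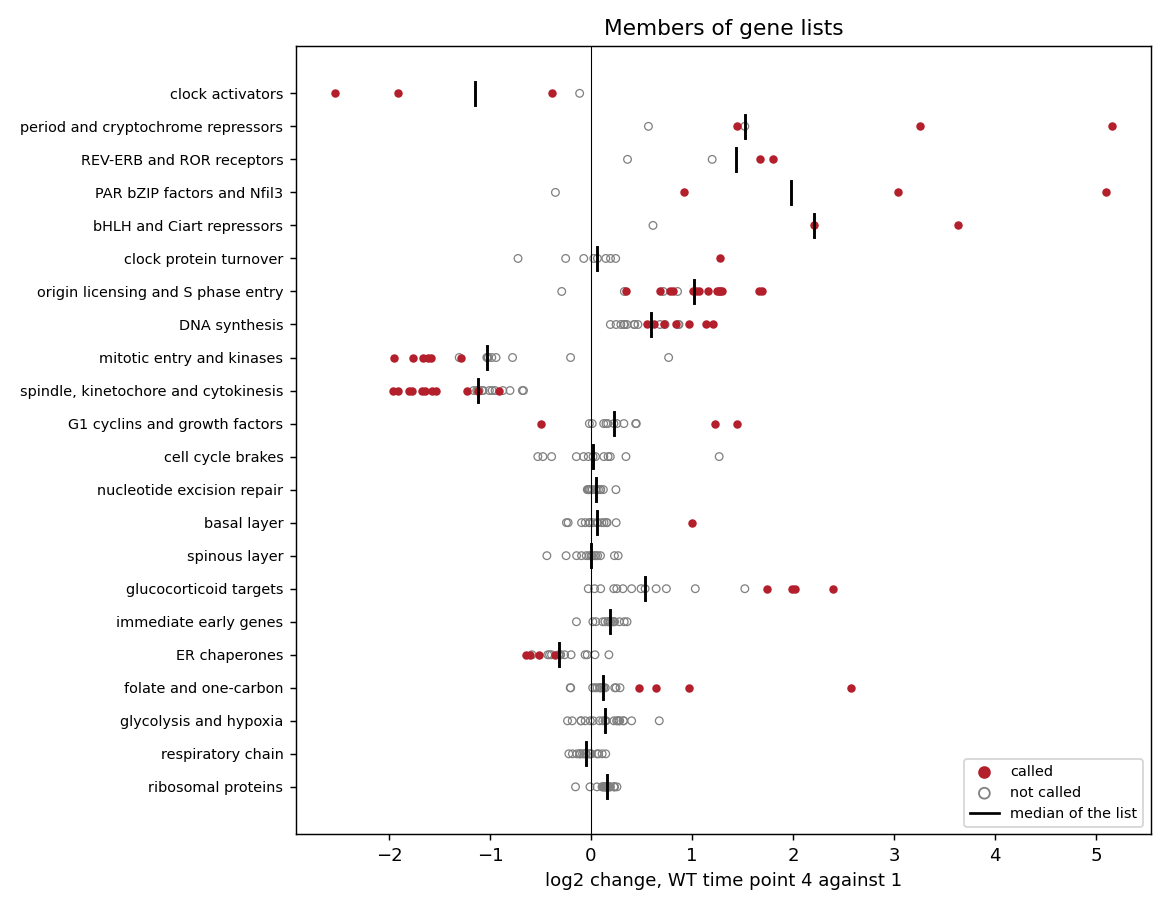
Each circle is a gene's log2 change from time point 1 to 4 in WT (horizontal axis), by gene list (rows), filled red where called, with a black bar at the list's median. The clock lists spread widest, from -2.53 to 5.15, and the S phase lists lie to the right and the mitosis lists to the left of 0. The lists of the respiratory chain, ribosomal proteins and nucleotide excision repair stay between -0.22 and 0.26. Of the 24 ribosomal protein genes 22 lie above 0 (median 0.16).

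Several of the genes that changed most stood outside these lists. Plxnd1, a semaphorin receptor, fell from 29.0, 30.6, 31.0 and 32.0 CPM to 11.4, 5.28, 8.06 and 8.74 CPM (log2 change -1.87 ± 0.22, adjusted p = 1.64e-05). Ttc9 fell from 52.9, 50.8, 47.0 and 50.2 CPM to 16.5, 11.8, 16.1 and 11 CPM (-1.86 ± 0.13, adjusted p = 4.47e-09). Both had wide gaps between the groups. Pif1, a DNA helicase, fell by 2.32 ± 0.35 and Ankdd1a, an ankyrin repeat gene, by 1.99 ± 0.30 on the log2 scale. Gas2l3, Sapcd2, Pimreg and Troap, all with known roles in cell division, fell by 1.79 to 1.92. Among the most raised, Kbtbd11 was the only gene in no list, and its change of 1.76 ± 0.47 kept its call only without replicate 2 or 3 of time point 4 when an animal was left out. Pgm2l1, which makes a cofactor of sugar phosphate metabolism, rose from between 9.46 and 11.3 CPM to between 26.3 and 34.4 CPM (1.54 ± 0.18, adjusted p = 1.27e-05).

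The libraries of the other WT time points, which the comparison did not use, showed where the compared points lie in the course of each gene. Arntl averaged 96.5 ± 3.39, 44.6 ± 8.34, 22.8 ± 3.66, 25.7 ± 6.81, 52.2 ± 18.6 and 83.7 ± 21.3 CPM at time points 1 to 6 (mean ± SD, n = 4 each). Dbp averaged 2.60, 78.4, 127, 89.0, 25.6 and 9.57 CPM, so that its peak came before time point 4. Per2 averaged 4.14, 21.1, 89.2, 148, 93.7 and 26.0 CPM and was highest at time point 4. Nr1d1 was highest at time point 2 with 332 ± 63.0 CPM and lowest at time point 6 with 31.4 ± 30.1 CPM, so that time points 1 and 4 lay on its rising and falling sides. E2f1 stood at 26.5, 24.3 and 23.6 CPM at time points 3 to 5 and at 7.67, 12.2 and 10.3 CPM at time points 1, 2 and 6. Ccnb2 averaged 19.0 CPM at time point 1, 5.49 CPM at time point 3 and 12.0 ± 4.44 CPM at time point 6. Of the 409 genes that rose, 386 (94.4%) had a higher mean at time point 3 than at time point 6, against 48.5% of all tested. Of the 291 that fell, 267 (91.8%) had a higher mean at time point 6 than at time point 3, against 51.5% of all tested. Among those that rose the highest of the 6 means lay at time point 3 for 183 genes and at time point 4 for 174. Over all 17944 genes tested these counts were 4016 and 2516. Unlike the shares for time points 3 and 6, this count includes the compared libraries. The genes were picked for being higher at time point 4 than at time point 1. That choice raises the count at time point 4, so it cannot tell when these genes peak.

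The comparison with KO and RE asked whether these differences between the times differ between genotypes. WT and RE carried K14-Cre and KO, by its name, did not. Between WT and KO, the loss of Bmal1 and the absence of Cre therefore cannot be told apart. Summed over the gene, Arntl counts stood at 30.9 ± 1.11 CPM in KO at time point 1 and at 31.8 ± 2.14 CPM at time point 4 (mean ± SD, n = 4 each), and in RE at 55.2 to 75.3 and 51.1 to 54.4 CPM. Which side of the cassette these reads come from cannot be told from counts per gene. Nr1d1, a gene driven by BMAL1, stood at 3.34 to 7.90 CPM in KO over both times, against 76.8 to 356 CPM in WT. Far fewer genes were called between time points 4 and 1 in these genotypes, 26 in KO (0.145% of those tested) and 12 in RE (0.0669%), against 700 in WT. In KO 11 were higher (0.0613%) and 15 lower (0.0836%), and in RE 11 were higher (0.0613%) and 1 lower (0.00557%). An unadjusted p under 0.05 was reached by 1737 genes in KO and 1676 in RE, of 17944 tested. The change itself differed between WT and KO for 209 genes (1.16%), and between WT and RE for 38 (0.212%). It was more positive in WT than in KO for 135 (0.752%) and more negative for 74 (0.412%), and against RE these were 23 (0.128%) and 15 (0.0836%).

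For the clock, 11 of 29 genes changed differently in WT and KO and 9 of 29 in WT and RE. Dbp stood at 4.74 to 7.20 CPM in KO at time point 1 and at 5.05 to 6.12 CPM at time point 4, so its log2 change there was -0.07, against 5.10 in WT (difference 5.16 ± 0.33, adjusted p = 1.56e-08). In RE it rose from between 15.1 and 27.4 CPM to between 30.4 and 56.8 CPM, a change of 0.96 that was not called and that differed from WT by 4.13 (adjusted p = 4.05e-07). Tef averaged 258 and 353 CPM in RE at the 2 times, against 163 and 165 CPM in KO and 66.3 and 546 CPM in WT, and its change in RE was not called. For Per3 the log2 changes were 3.26, -0.24 and 0.35 in WT, KO and RE, and for Arntl -1.91, 0.05 and -0.25. None of the 29 clock genes was called between the times in KO by edgeR or DESeq2, with 1 at an unadjusted p under 0.05. In RE edgeR called none, DESeq2 called 2 and 9 had an unadjusted p under 0.05. Per2 in RE had a log2 change of 1.77 (adjusted p = 0.0904).

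The median log2 change of the mitosis genes was -1.12 in WT, 0.29 in KO and 0.11 in RE, where edgeR and DESeq2 called none of them in KO or RE (0 and 1 at an unadjusted p under 0.05). The change differed between WT and KO for 13 of the 39 genes, with 36 at an unadjusted p under 0.05 and 19 called by DESeq2. Cenpa, for example, had changes of -1.67 and 0.46 (difference -2.14, adjusted p = 0.00507). That count was 5 to 7 without any 1 of replicates 2, 3 and 4 of WT time point 1, replicates 2 and 3 of WT time point 4, replicates 1 and 4 of KO time point 1 or replicate 1 of KO time point 4. Between WT and RE edgeR called none of the 39, with 35 at an unadjusted p under 0.05 and 12 called by DESeq2. Of all 17944 genes, 2168 had such a p for the difference from KO and 1486 for that from RE. In the S phase genes the medians were 0.76, 0.04 and 0.37 in WT, KO and RE. The change differed between WT and KO for 4 of the 38, with Gins2, Mcm6 and Chaf1b among them, a number that ran from 1 to 8 with 1 animal left out. It was 8 without replicate 3 of KO time point 1 and 2 without replicate 1 of WT time point 1. It was 1 without any 1 of the other replicates of KO time point 1, replicates 2 and 4 of KO time point 4, the other replicates of WT time point 1 or replicates 1, 3 and 4 of WT time point 4. Between WT and RE edgeR and DESeq2 called none of the 38, with 7 at an unadjusted p under 0.05.

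Outside the clock lists, Ccnd2 had the smallest p for a difference from KO. Its levels in KO were 202 to 267 CPM at time point 1 and 222 to 313 CPM at time point 4, and its log2 change of 0.08 there differed from the 1.44 in WT by 1.37 (adjusted p = 4.1e-06). In RE it rose by 0.53 (adjusted p = 0.0369), less than in WT by 0.91 (adjusted p = 0.00242). Ttc9 fell by 1.86 in WT and had changes of -0.31 in KO and -0.50 in RE, differing from both. Cipc, which encodes a repressor that binds CLOCK, rose by 0.57 in WT and had changes of -0.20 and -0.14 in KO and RE. Nfyb, a subunit of the CCAAT factor NF-Y, fell from between 49.0 and 52.9 CPM to between 34.3 and 38.6 CPM in WT (-0.49 ± 0.07, adjusted p = 0.000229) and had changes of 0.12 and 0.13 in KO and RE. Of the 409 genes that rose in WT, 60.4% had a positive change in KO and 84.4% in RE, against 52.4% and 52.6% of all genes tested. Of the 291 that fell, 56.7% had a negative change in KO and 74.9% in RE, against 47.6% and 47.4%.

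**Figure D5:**
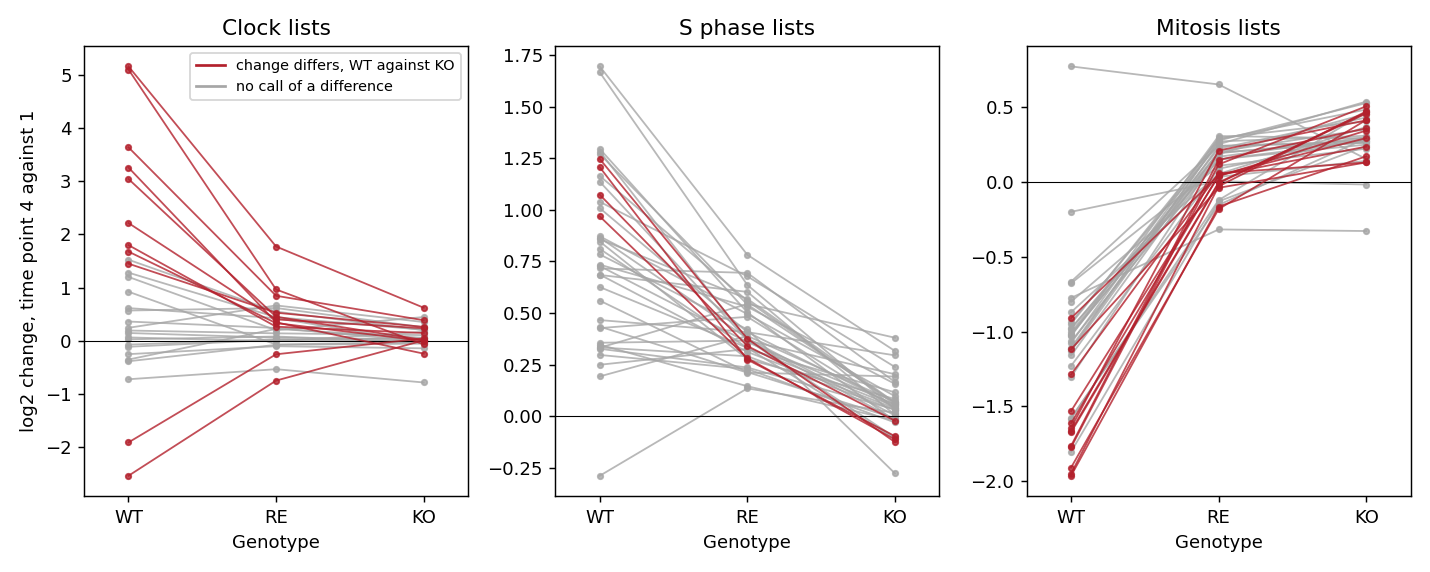
The log2 change from time point 1 to 4 is joined across WT, RE and KO for each gene of the clock, S phase and mitosis lists, each panel with its own vertical scale and red lines where the change differed between WT and KO (11, 4 and 13 genes). In the clock panel WT spans -2.53 to 5.15 and KO -0.78 to 0.62, and in the mitosis panel the values lie mostly below 0 in WT and mostly above 0 in KO.

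Markers of other cells of the skin were compared in the same 8 libraries. Of 12 lists, from Langerhans cells and melanocytes to muscle and red blood cells, only the summed level of adipocyte markers passed the threshold, with 33.3 ± 0.835 CPM at time point 1 and 41.8 ± 4.25 CPM at time point 4 (exact permutation p = 0.0286, two-sided, the smallest possible). The exact p of the other 11 lists was 0.114 or higher. Nearly all of that sum was Pnpla2, a lipase that other cells also express, at 29.0 and 37.0 CPM. Lipe, another lipase, averaged 4.03 and 4.09 CPM. Of the other 8 listed adipocyte genes Plin1 was at 0 in all 8 libraries, Adipoq, Lep and Retn reached no more than 0.0482 CPM and Cfd no more than 0.186 CPM. Fabp4, Plin4 and Cidec, genes of lipid binding and lipid droplets, had higher means at time point 4, at 0.105 and 0.216 CPM, 0.0761 and 0.259 CPM, and 0.0501 and 0.143 CPM, with no library above 0.621 CPM. Sebaceous gland markers had a summed level of 83.2 to 107 CPM at time point 1 and of 74.6 to 308 CPM at time point 4, where replicate 4 was the highest. Fibroblast markers ran from 274 to 313 CPM and from 293 to 740 CPM. Most of that sum was Postn, which averaged 198 and 309 CPM. Of the 11 tested fibroblast genes 7 had a positive change and 4 a negative one, and none was called. Of the marker genes tested, Pnpla2 rose by 0.35 ± 0.10 and Thy1, a surface protein of epidermal T cells, fell by 1.01 ± 0.27, again with fragile calls. With 1 animal left out, Pnpla2 was called only without replicate 1 of time point 4. Thy1 was called only without replicate 1 of time point 1 or replicate 4 of time point 4. The T cell list as a whole did not fall: of its 9 tested genes 7 had a positive change and 2 a negative one (median 0.18). The part of these other cells of the skin in the results above was not tested.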

How the data were processed

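RNA of dissociated interfollicular epidermis was sequenced from 1 mouse per library. The deposited files hold raw counts of reads per gene for 46078 genes. Read trimming with Trimmomatic, alignment with TopHat2 2.1.1 to GRCm38 and counting with featureCounts are named in the submitters' processing notes. The sources used here do not say which annotation and strand option the authors chose or how reads with several matches were counted, so reads of a gene and an antisense or overlapping partner cannot be told apart.

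From these counts, edgeR 4.0.16 in R 4.3.3 fitted the 24 libraries of WT, KO and RE at time points 1 and 4 as 6 group means (robust quasi-likelihood, 18 residual degrees of freedom, common dispersion 0.0274). Scaling was by TMM (factors 0.966 to 1.05 in the 8 WT libraries), and filterByExpr with a minimum count of 10 left 17944 genes. Benjamini-Hochberg adjustment ran over all of these, and a gene was called at an adjusted p under 0.05. Unless another method is named, each adjusted p is from this test, and the SE is the log2 change divided by the root of the test's F. CPM values are on effective library sizes and are not corrected for gene length. On simulated counts of 17754 genes, the WT comparison found 67.2%, 83.6% and 97% of genes changed by 1.5, 2 and 4 times and called 8 unchanged genes. The 200 changed genes were drawn only from genes above a minimum mean count, so recovery of genes at lower levels was not measured. The difference between WT and KO found 34.3%, 58.2% and 92.4% of them, and that between WT and RE 37.3%, 64.2% and 93.9%. Tests of single measures were exact permutation tests in SciPy 1.17.1.

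The members, gene lists and tests were chosen with earlier results of these data known. Genes were named if they belonged to the clock lists, were among the 15 most raised or lowered (called, protein-coding, a mean log2 CPM of at least 1, groups without overlap), had the 4 smallest adjusted p of their list, or the 8 smallest for a difference between genotypes outside the clock lists. Members named as not called, and Mki67, Wee1, Cdkn1a, Krt5, Krt14, Krt10, Pyy and Nfkbia, were chosen after their values were seen. Of 620 listed genes, 1 symbol had no gene in the files. Some listed genes are counted in the lists but not reported here by name. Alternatives tried were other size factors, no filter, DESeq2 1.42.0, a replicate block, other sets of libraries and leaving out each animal.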

Additional observations from a re-analysis of the deposited data

Results flagged for a closer look

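Among 190 groups of 4 animals, 1 for each named gene and time point in WT, 8 had an animal whose distance to the next exceeded Dixon's limit, where chance flags about 1 in 20 groups. Replicate 2 of time point 4 was lowest for Per2, at 123 against 154 CPM for the next animal, and highest for Per3, at 244 against 199 CPM. At time point 1, replicate 1 was highest for Tef, at 79.4 against 62.0 CPM, and for Aloxe3, at 24.4 CPM, and replicate 4 was lowest for Bhlhe41, at 0.961 against 1.37 CPM. At time point 4, replicate 3 was highest for Usp2, at 37.0 against 24.0 CPM. Replicate 4 of time point 4 was lowest for Gsk3b, at 146 against 177 CPM, and highest for Fam53b, at 141 against 125 CPM.

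The log2 change from time point 1 to 4 differed between WT and KO, by the interaction test in edgeR, for these named genes. In the clock lists, the change in WT minus that in KO was -1.95 for Arntl and -2.54 for Npas2 among activators. It was 4.53 for Per2, 3.50 for Per3, 1.19 for Cry2, 3.25 for Ciart and 1.98 for Bhlhe41 among repressors, 1.65 for the receptor gene Nr1d2 and 5.16 for Dbp and 3.03 for Tef among output factors. In S phase genes it was 1.37 for Gins2, 1.09 for Mcm6 and 1.30 for Chaf1b, and for the D-type cyclins 1.37 for Ccnd2 and 1.04 for Ccnd1. Among mitosis genes it was -2.13 for Cenpf, -2.42 for Cdc25c, -2.32 for Aspm, -2.28 for Ube2c and -1.41 for Aurka. For further members it was -2.12 for Ccnb2, -2.12 for Ccnb1, -2.14 for Cenpa, -1.25 for Ccnf and -2.05 for Cdc20. The most lowered genes outside the lists had differences of -2.81 for Pif1, -1.91 for Ankdd1a, -2.22 for Gas2l3 and -2.20 for Sapcd2, and of -2.19 for Pimreg, -1.78 for Plxnd1, -1.54 for Ttc9 and -2.13 for Troap. For the glucocorticoid targets it was 1.83 for Glul (adjusted p = 0.0414) and 1.91 for Tsc22d3 (adjusted p = 0.0202). With 1 animal left out, the 2 calls of that list ran from 0 to 2, with 0 without replicate 2 of WT time point 1. For metabolic genes the difference was 2.27 for Mthfd1l, 0.81 for Sod2, 0.66 for Prdx6 and 0.88 for Ucp2. For epidermal and signalling genes it was 1.13 for Dst, 1.03 for Cx3cl1 and -1.37 for Il33. Further genes had differences of 0.83 for Fam53b, 0.77 for Cipc, 1.24 for Pdxk, 0.68 for Zhx2, -0.96 for Prag1, -0.61 for Nfyb, -0.80 for Hs3st6, -0.71 for Hmgb2, 1.29 for Pgm2l1 and 1.25 for Slc46a3. 

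Between WT and RE, the same test gave fewer named genes. In the clock lists, the change in WT minus that in RE was -1.66 for Arntl (adjusted p = 7.51e-06) and -1.79 for Npas2 (adjusted p = 0.025). With 1 animal left out, the 2 calls of the activator list ran from 1 to 2. The difference was 3.38 for Per2, 2.91 for Per3 and 2.79 for Ciart among repressors. It was 1.53 for the receptor gene Nr1d2 and 4.13 for Dbp and 2.59 for Tef among output factors. Outside the clock it was -1.93 for Sapcd2 (adjusted p = 0.047), -1.56 for Plxnd1 and -1.36 for Ttc9. It was 0.91 for Ccnd2, 0.75 for Cx3cl1 and 0.60 for Fam53b. For the other genes it was 0.71 for Cipc, -0.62 for Nfyb, -0.79 for Hs3st6, -0.72 for Hmgb2, 1.35 for Pgm2l1 and 1.23 for Slc46a3.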

How the results depend on the processing

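The 409 higher and 291 lower genes of the WT comparison became 633 and 464 (1097 in all) with DESeq2. With the 8 WT libraries alone they became 702 and 416 (1118 in all), and with other size factors in edgeR 382 and 307. DESeq2 shared 691 of the 700 genes. With 1 animal left out the count ran from 343 to 562, higher genes from 196 to 336 and lower from 147 to 228, and 291 genes were called in every such fit.

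The difference between WT and KO held 209 genes. It held 457 with DESeq2 (280 higher, 177 lower), 109 with all 72 libraries (67 and 42) and 135 without a filter (45 lower). Leaving out animals gave 110 to 230, with 70 to 133 higher and 40 to 98 lower. The difference between WT and RE held 38 genes, 160 with DESeq2 (82 and 78), 17 with all 72 libraries (12 and 5) and 9 lower without a filter. Leaving out animals gave 17 to 61, with 11 to 30 higher and 5 to 34 lower. The cause was not tested.

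Samples with the same replicate number at both times had correlations of -0.00529, 0.0265, 0.127 and -0.0363 in their deviations. The labels do not say whether such samples share a litter or a day, and these correlations cannot tell. A replicate block gave 782, 207 and 31 genes for the comparisons in turn, and 2 of 4 animals matched their own number best.

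Of 3721 values of named genes and list counts under an alternative, 3365 kept direction and side of the threshold or stayed within 1.5 times, 115 lost a call, 20 gained one and 24 reversed, all in 7 genes that were not called, and the rest were list counts that moved by over 1.5 times. All reversals came from leaving out 1 animal. Over those fits the WT log2 change of Fbxw11 ran from -0.00103 to 0.0871. The differences between WT and KO ran from -0.144 to 0.261 for Fbxl21, -0.00346 to 0.113 for Fbxw11, -0.408 to 0.0804 for Usp2 and -0.105 to 0.0176 for Gsk3b. Those between WT and RE ran from -0.189 to 0.218 for Cry1, -0.0526 to 0.355 for Bhlhe40, -0.405 to 0.00388 for Fbxl21, -0.0885 to 0.00644 for Fbxw11 and -0.0276 to 0.119 for Csnk1e. Counts were high enough to test 17944 of 46078 genes, and no statement reaches the others.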

Other observations

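In WT animals of time point 1, replicates 3 and 4 stood above replicates 1 and 2 for several genes that light, hormones or stress can induce, a set chosen after its values were seen. Wee1, a kinase that delays mitosis, was at 42.2 and 41.1 CPM against 16.9 and 22.6 CPM. Nfkbia, an inhibitor of NF-κB, was at 430 and 406 CPM against 207 and 297 CPM. Per1 showed the same order, with 250 and 239 CPM against 62.2 and 111 CPM.

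Pyy, a peptide hormone gene that was chosen after its values were seen, stood at 3.48, 5.95, 3.83 and 4.26 CPM at time point 1 and at 48.9, 3.51, 15.7 and 199 CPM at time point 4. The groups overlapped through replicate 2. Its log2 change of 3.93 ± 0.84 was called (adjusted p = 0.00932 by edgeR), and the call was lost without replicate 4 of time point 4.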
